A study of Mus musculus with 6 samples.

Results

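The genes described here make the glycerol-based lipids of the cell: the phospholipids of its membranes and the triacylglycerol stored in lipid droplets. The set was a list of 41 named genes whose products act in the pathway, and all 41 were found among the 28879 genes of the deposited table. They were compared between vitrified–warmed and fresh mouse blastocysts in 6 RNA-Seq libraries. Of the 41 genes, 40 had enough fragments to be tested. In vitrified–warmed blastocysts 17 were lower (42.5%, beside 32.8% of all genes tested) and 10 were higher (25%, beside 31.6%). The other 13 did not pass the test. The larger falls were in the phosphatidate phosphatases *Lpin3* and *Lpin2*, in *Pcyt2* of the ethanolamine route and in *Gpam*, a gene of the first step. The fall of *Lpin2* rested on few fragments. The larger rises were in *Dgat1*, *Pisd* and *Lpcat4*, and the rise of *Pisd* was not present in the sum of *Pisd* and its 2 copies in the table, 1 of which fell.

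Glycerolipid synthesis begins when a fatty acid is joined to glycerol-3-phosphate and a second to the lysophosphatidate so formed, which gives phosphatidate. Phosphatidate is then either dephosphorylated by lipins to diacylglycerol, the precursor of triacylglycerol, phosphatidylcholine and phosphatidylethanolamine, or activated with CTP to CDP-diacylglycerol, the precursor of phosphatidylinositol, phosphatidylglycerol and the mitochondrial lipid cardiolipin. Finished phospholipids are remodelled by reacylation of their lysophospholipids, and preimplantation embryos keep triacylglycerol in droplets coated by perilipins.

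The fresh group was 1 pool of cultured blastocysts and the vitrified–warmed group was 1 pool of blastocysts that had been vitrified with a Cryotech kit and warmed, and 3 aliquots of each pool gave 1 library each. In both groups the donors were superovulated females aged 6 to 8 weeks, given as C57BL/6JNarl in the sample notes, while the series text names B6CBF1 mice and human tubal fluid as the culture medium for 3 days. The labels name no genetic change in either group. Since the 3 libraries of a group are aliquots of 1 pool, every p-value measures the spread between aliquots and none covers the spread between pools or embryos, and vitrification cannot be told apart from any other difference between the 2 pools.

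Libraries held 9093411 to 11843562 exon fragments, and 15558 to 20086 genes had at least 1 fragment. Replicates of a group differed by more than sampling noise (chi-square per degree of freedom 1.40 to 4.50), so that all 6 were kept as separate libraries. Exon fragments were 63.2% to 63.6% of the fragments behind the deposited FPKM (fragments scaled by exon length and library total) in fresh libraries and 54.4% to 56.6% in vitrified–warmed libraries, a difference that follows the groups and whose part in the results was not tested. The blastocyst label was checked with marker genes. The 7 trophectoderm markers summed to 1485 to 1553 CPM (counts scaled to a common library total) in fresh and 1721 to 1735 in vitrified–warmed libraries, the 5 inner cell mass and epiblast markers to 592 to 624 and 603 to 628, and the 4 primitive endoderm markers to 232 to 239 and 295 to 328. Within these lists 5 trophectoderm markers were higher and 1 was lower, 2 inner cell mass and epiblast markers were higher and 1 was lower, and of the primitive endoderm markers *Gata6*, which carries most of the sum, was higher, *Sox17* was lower, and *Gata4* and *Pdgfra* were not called. The 6 cumulus cell markers summed to at most 3.86 CPM and the 3 oviduct markers to at most 4.60 CPM in any library, and among them *Ptx3* and *Amh* had no fragment in the vitrified–warmed libraries. The 5 blood and immune markers summed to 4.03 to 4.78 CPM in fresh and 13.5 to 18.6 in vitrified–warmed libraries. *Hba-a1*, *Hbb-bs* and *Cd68* carried this rise. *Ptprc* (4 fragments in fresh and 1 in vitrified–warmed libraries) and *Alas2* (14 and 1) went the other way and were too low to be tested. The part of these differences in the results below was not tested, and in pooled embryos fewer cells of a type and less RNA per cell cannot be told apart.

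Genes were called at an adjusted p under 0.05 in edgeR's quasi-likelihood test with Benjamini–Hochberg adjustment over the 12774 genes tested. Under this rule 67.5% of the 40 tested genes were called, beside 64.4% of all genes. The 17 lower genes were 42.5% of the set, beside 32.8% of all genes, and the 10 higher genes were 25%, beside 31.6%. The 2 groups of libraries did not overlap for 29 of the 40 genes (72.5%), beside 68.6% of all genes. The median log2 fold change was -0.05 over the set and -0.001 over all genes. Under the thresholds used by the study (mean above 0.5 FPKM, unadjusted p under 0.05 and at least 1.5-fold), 8 of the 39 genes above 0.5 FPKM were lower (20.5%, beside 15.3% of all genes) and 3 were higher (7.69%, beside 12.1%). The share of called genes in either direction thus lay near that of all genes, and what follows describes which steps moved. A total of 12 genes passed the adjusted p, did not overlap between groups and differed at least 1.5-fold, with 9 lower (22.5% of the tested set, beside 17.5% of all genes) and 3 higher (7.5%, beside 18.2%).

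**Figure D1:**
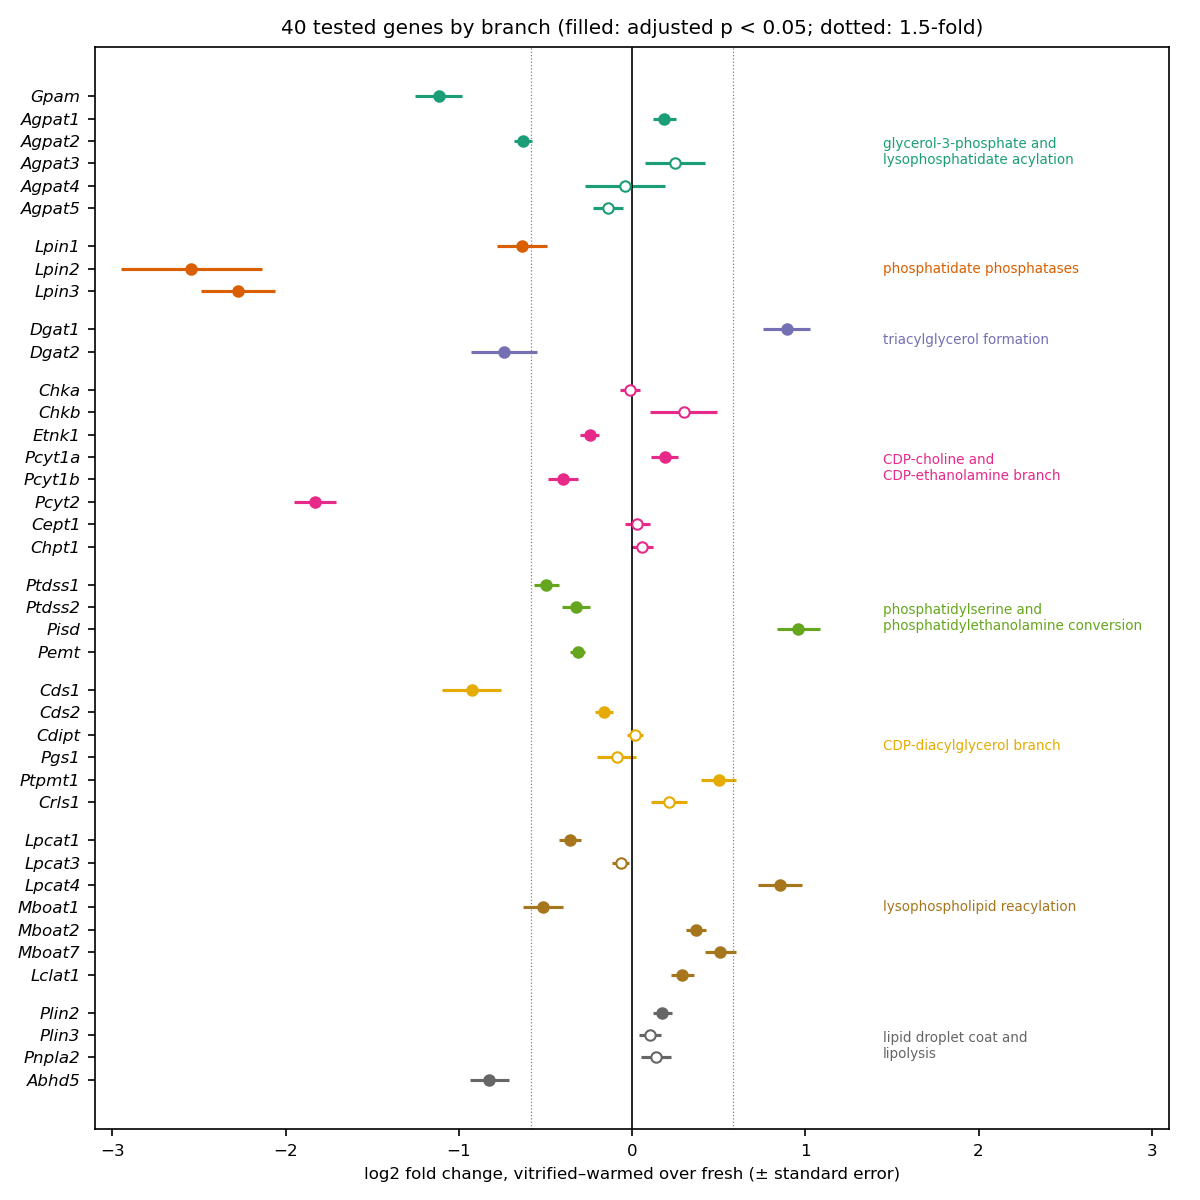
Log2 fold change (vitrified–warmed over fresh, ± standard error, x axis) of the 40 tested genes, grouped by branch of the pathway (y axis, coloured by branch). Filled points passed an adjusted p of 0.05 in edgeR and dotted lines mark 1.5-fold. *Lpin2*, *Lpin3*, *Pcyt2* and *Gpam* lie furthest to the left, and 3 points lie right of the upper dotted line.

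The set spanned a wide range of levels. *Pemt*, which methylates phosphatidylethanolamine to phosphatidylcholine, was the most abundant per length, at 76.1 ± 1.33 FPKM in fresh and 54.4 ± 1.17 FPKM in vitrified–warmed libraries (SD, n = 3 aliquots each, as throughout). *Cdipt*, the phosphatidylinositol synthase, and *Plin2*, a droplet coat protein, were among the 4 highest in both groups, at 37.1 ± 0.781 and 35.1 ± 0.360 FPKM in fresh libraries and at 33.3 ± 0.994 and 35.2 ± 2.42 FPKM in vitrified–warmed libraries. In the latter group the spreads of *Cdipt* and *Plin2* overlapped, so that their order was not resolved. *Agpat2* stood in place 3 in fresh libraries at 35.6 ± 0.476 FPKM, between *Cdipt* and *Plin2* and with a spread that overlapped that of *Plin2*, and in place 6 in vitrified–warmed libraries at 20.4 ± 0.279 FPKM, within the spread of *Plin3* (21.1 ± 1.05 FPKM). The lowest genes were *Lpin2* and *Etnk2*, both below 0.5 FPKM in either group. Large changes were mostly found at low levels. Of the 10 genes with a mean above 10 FPKM only *Agpat2* was among the 12, against 7 of the 25 at 1 to 10 FPKM and 4 of the 5 tested below 1 FPKM, and among all genes tested the share past the same rule was 8.78%, 29.9% and 60.0% in these classes.

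Among the genes of the set for the first acylation steps, *Gpam* and *Agpat2* fell. *Gpam* encodes the mitochondrial enzyme that acylates glycerol-3-phosphate, a committed step of glycerolipid synthesis. It stood at 14.3, 12.6 and 14.1 CPM in fresh libraries 1 to 3 and at 5.97, 6.63 and 6.31 CPM in vitrified–warmed libraries 1 to 3. All vitrified–warmed libraries were below the lowest fresh library, and *Gpam* was 2.17-fold lower (log2 fold change -1.12 ± 0.14 SE, adjusted p = 3.84e-06 in edgeR). *Agpat9*, another glycerol-3-phosphate acyltransferase gene outside the set, had a higher mean level, 8.90 FPKM against 0.918 FPKM for *Gpam*. It was not called, at 51.7 ± 2.46 CPM in fresh and 47.0 ± 1.06 CPM in vitrified–warmed libraries (log2 fold change -0.14, adjusted p = 0.0742 in edgeR). *Gpat2* of the same step was not called either (-0.23), while *Agpat6* was lower (-0.39). *Agpat2*, an acyltransferase that makes phosphatidate and whose loss causes lipodystrophy in humans and mice, stood at 89.0, 88.5 and 89.4 CPM in fresh and at 58.0, 57.5 and 57.3 CPM in vitrified–warmed libraries. The groups were far apart relative to their spread, with *Agpat2* 1.54-fold lower (log2 fold change -0.63 ± 0.05 SE, adjusted p = 8.88e-08 in edgeR).

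None of the other lysophosphatidate acyltransferases was called lower in edgeR. *Agpat1* was higher by a small amount, from 42.6 ± 1.58 to 48.5 ± 1.08 CPM (log2 fold change 0.19, adjusted p = 0.0203 in edgeR), and this call was lost in limma on log2(FPKM + 0.5), where its log2 fold change was 0.01, and without fresh replicate 1 (0.15, adjusted p = 0.0836 in edgeR). The paralogues *Agpat3*, *Agpat4* and *Agpat5* were not called, with log2 fold changes of 0.25, -0.04 and -0.14. *Agpat2* gave 68.4% to 69.1% of the summed FPKM of the 5 AGPAT genes in fresh libraries and 57.0% to 57.2% in vitrified–warmed libraries, while *Agpat1* gave 19.5% to 20.7% and 28.9% to 30.0%. Such shares are given as a description, and they do not depend on how libraries are scaled to each other.

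All 3 lipins were lower, beside 32.8% of all genes tested. These enzymes remove phosphate from phosphatidate to make diacylglycerol, and lipin proteins also act as transcriptional co-regulators. All 3 genes had a mean below 1 FPKM. In that class 60.0% of all genes tested passed the adjusted p without overlap and at 1.5-fold, in either direction. *Lpin3* stood at 8.55, 8.15 and 9.60 CPM in fresh and at 1.40, 2.17 and 1.87 CPM in vitrified–warmed libraries. The lowest fresh library was well above the highest vitrified–warmed library, and *Lpin3* was 4.85-fold lower (log2 fold change -2.28 ± 0.21 SE, adjusted p = 3.09e-07 in edgeR). *Lpin2* rested on few fragments, 62, 48 and 52 in fresh and 4, 15 and 6 in vitrified–warmed libraries, or 5.70, 4.25 and 4.45 CPM against 0.373, 1.63 and 0.533 CPM. Vitrified–warmed replicate 2 was higher than the other two but still below every fresh library.

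*Lpin2* was 5.83-fold lower in the edgeR fit (log2 fold change -2.54). The size of this fall was not settled by these libraries, as it was -3.37 on the log2 scale without vitrified–warmed replicate 2 and -0.67 in limma on log2(FPKM + 0.5), a scale that compresses low genes and on which *Lpin3* fell by 1.39. *Lpin2* was also the only gene of the set that passed the filter on low counts through 1 group alone, the fresh one. It was high in that group, so that its p-value is not given. It is still counted among the 17 lower genes and the 12 described library by library. *Lpin1*, known as the main adipose and muscle lipin, stood at 11.4, 12.3 and 9.68 CPM in fresh and at 7.09, 7.50 and 6.93 CPM in vitrified–warmed libraries. The groups did not overlap, and the change of 1.55-fold was the mildest of the 3 (log2 fold change -0.63 ± 0.14 SE, adjusted p = 0.00119 in edgeR).

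The unequal falls changed which lipin was most abundant. Per length, *Lpin3* gave 49.3% to 57.5% of lipin FPKM in fresh libraries and 26.5% to 32.5% in vitrified–warmed libraries. *Lpin1* gave 30.4% to 39.0% and 57.4% to 70.3%, and *Lpin2* gave 11.7% to 15.1% and 3.20% to 10.8%. The sum of the 3 was 2.995 ± 0.0865 FPKM in fresh and 0.943 ± 0.116 FPKM in vitrified–warmed libraries. The sum carries the scale of the deposited FPKM, on which the median of all genes lay 0.13 lower in vitrified–warmed libraries in log2 units, against -0.001 in the edgeR fit. The plot of family shares shows the exchange between *Lpin1* and *Lpin3* library by library.

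The promoters of *Lpin2* and *Lpin3*, the lipins with the larger falls, are shown beside that of *Lpcat4*, which rose. They are RefSeq windows on GRCm38.p6, from 250 bases before to 50 bases after the RefSeq gene start, and 35 of the 41 genes matched such a window by name (the others were *Agpat5*, *Dgat1*, *Dgat2*, *Pcyt2*, *Ptdss1* and *Cdipt*). For *Lpin2*, *Lpin3* and *Lpcat4* this start lay at most 4 bases from that of the counted gene. The distance was largest for *Lpin1*, *Pemt* and *Agpat1*, at 36002, 6324 and 1583 bases. The *Lpin2* window is chr17:71183282-71183581, that of *Lpin3* is chr2:160880420-160880719 and that of *Lpcat4* is chr2:112239591-112239890, all on the plus strand and written 5′ to 3′. Capitals mark the E-box CACGTG and the GC box GGGCGG, searched on both strands, so that a GC box on the minus strand reads CCGCCC.
Lpin2: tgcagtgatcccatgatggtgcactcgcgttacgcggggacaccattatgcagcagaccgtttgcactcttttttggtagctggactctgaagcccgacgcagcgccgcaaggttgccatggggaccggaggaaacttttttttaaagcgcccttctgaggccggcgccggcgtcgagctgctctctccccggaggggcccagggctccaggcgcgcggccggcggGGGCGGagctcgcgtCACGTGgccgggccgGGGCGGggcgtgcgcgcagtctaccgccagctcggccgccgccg
Lpin3: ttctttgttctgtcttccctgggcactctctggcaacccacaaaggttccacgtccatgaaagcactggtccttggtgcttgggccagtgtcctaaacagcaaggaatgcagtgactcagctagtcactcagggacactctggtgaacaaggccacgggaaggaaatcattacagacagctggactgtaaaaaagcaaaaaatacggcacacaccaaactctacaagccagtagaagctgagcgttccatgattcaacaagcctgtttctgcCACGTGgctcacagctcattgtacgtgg
Lpcat4: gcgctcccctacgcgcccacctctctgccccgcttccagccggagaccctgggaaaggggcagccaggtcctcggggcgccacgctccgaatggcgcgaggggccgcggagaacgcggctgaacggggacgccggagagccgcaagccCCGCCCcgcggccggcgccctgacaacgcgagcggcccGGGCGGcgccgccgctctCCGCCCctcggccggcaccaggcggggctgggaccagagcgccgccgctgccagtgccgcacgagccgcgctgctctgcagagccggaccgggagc

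In *Lpin2* the E-box begins 9 bases before the start, between 2 GC boxes. In *Lpin3* it begins 22 bases after the start and no GC box is present, while *Lpcat4* holds 3 GC boxes and no E-box. This contrast did not follow the direction of change. The windows of *Gpam*, *Agpat2*, *Cds1* and *Abhd5*, which also fell, held no E-box, and those of *Agpat2* and *Cds1* held 3 GC boxes each. CACGTG was found in 7.15% of the 32851 RefSeq mouse promoters and in 8.16% of the 49 windows of the set, where the other 2 genes with it were *Crls1* and *Plin2*. GGGCGG was in 35.7% of all promoters and 65.3% of the windows of the set, and CCAAT in 37.4% and 40.8%. TCACNCCAC, a sterol regulatory element, was in 1.24% of all promoters and in 4.08% of the windows of the set, all from *Pcyt1a*. These matches are a description of letters, and no binding was measured.

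The enzymes that complete triacylglycerol moved in opposite directions. *Dgat1* and *Dgat2* encode unrelated proteins that both add the last fatty acid to diacylglycerol. *Dgat1* stood at 6.35, 7.26 and 7.62 CPM in fresh and at 14.0, 13.2 and 12.4 CPM in vitrified–warmed libraries. It was 1.86-fold higher without overlap between groups (log2 fold change 0.89 ± 0.14 SE, adjusted p = 3.44e-05 in edgeR). *Dgat2* stood at 6.71, 6.38 and 5.74 CPM in fresh and at 3.92, 3.80 and 3.55 CPM in vitrified–warmed libraries. It was 1.67-fold lower, again without overlap (log2 fold change -0.74 ± 0.19 SE, adjusted p = 0.00284 in edgeR). The ratio of *Dgat1* to *Dgat2* FPKM was 0.856, 1.03 and 1.20 in fresh and 3.24, 3.13 and 3.15 in vitrified–warmed libraries. The sum of both genes was 3.55 ± 0.0382 FPKM in fresh and 3.89 ± 0.222 FPKM in vitrified–warmed libraries, so that on this scale the ratio of the transcripts differed more than their sum. Like the lipin sum, it carries the scale of the deposited FPKM, on which the median log2 fold change of all genes was -0.13.

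**Figure D2:**
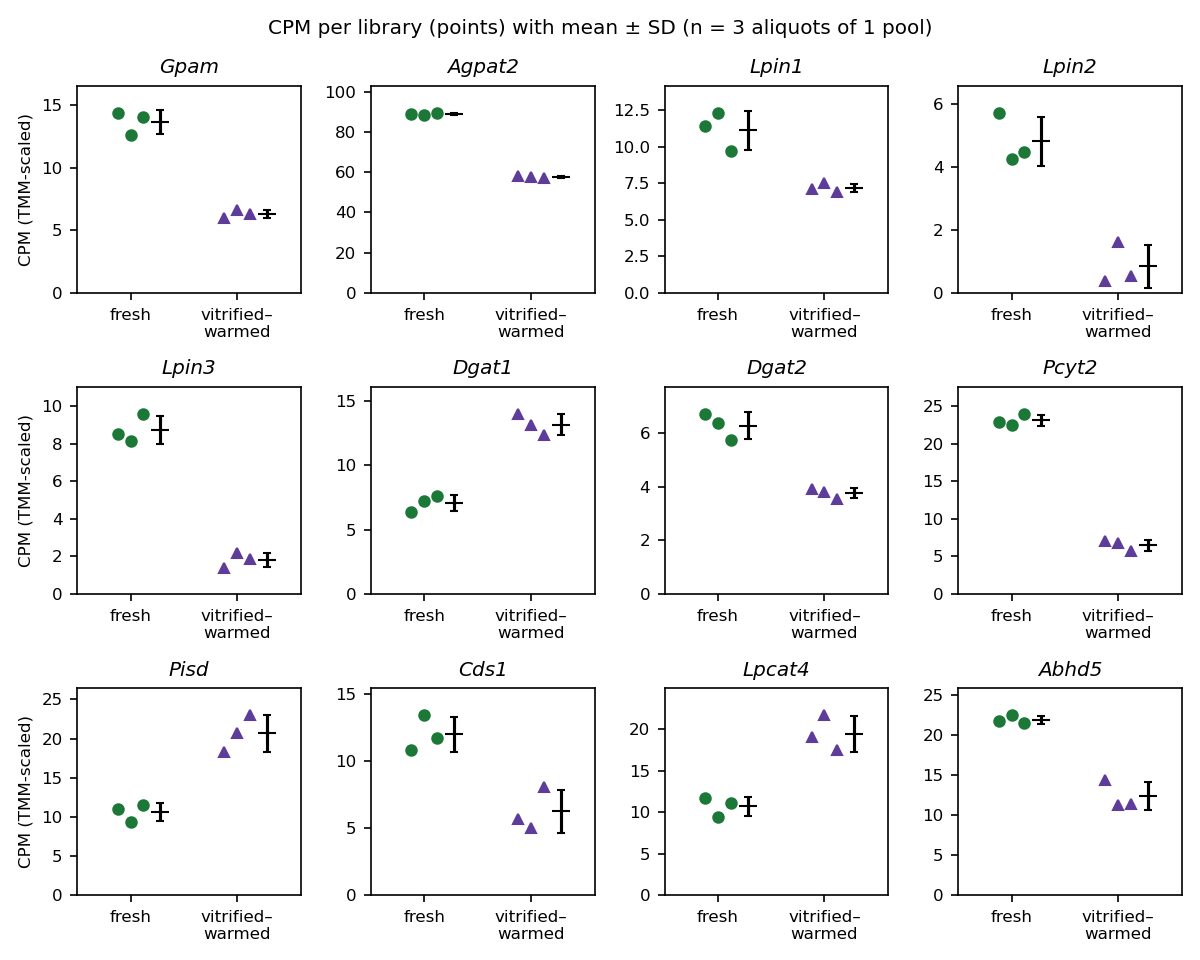
CPM (y axis, scaled with TMM factors, starting at 0) of the 12 genes past adjusted p, without overlap and at least 1.5-fold, in fresh (circles) and vitrified–warmed (triangles) libraries, with mean ± SD (n = 3 aliquots of 1 pool) beside the points. In 9 panels the triangles lie below every circle, and in *Dgat1*, *Pisd* and *Lpcat4* they lie above.

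In the CDP-choline and CDP-ethanolamine branch, which adds the head groups of phosphatidylcholine and phosphatidylethanolamine, the large change was at 1 gene. *Pcyt2* encodes the CTP:phosphoethanolamine cytidylyl transferase, which controls the rate of the ethanolamine route. It stood at 22.9, 22.5 and 24.0 CPM in fresh and at 7.09, 6.74 and 5.69 CPM in vitrified–warmed libraries. It was 3.56-fold lower, and the fresh libraries were all at least 22.5 CPM while no vitrified–warmed library passed 7.09 CPM (log2 fold change -1.83 ± 0.12 SE, adjusted p = 1.07e-08 in edgeR). In order of FPKM *Pcyt2* went from place 16 among the 41 genes to place 32.

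The corresponding genes of the choline route changed less than *Pcyt2*. *Pcyt1a*, the main CTP:phosphocholine cytidylyl transferase, went from 29.4 ± 1.43 to 33.6 ± 1.41 CPM (log2 fold change 0.19, adjusted p = 0.0456 in edgeR), and this call was lost in 10 of the 15 alternatives. *Pcyt1b*, its paralogue, fell from 31.4 ± 1.23 to 23.7 ± 1.69 CPM (log2 fold change -0.40, adjusted p = 0.000713 in edgeR), a call kept in all 15 alternatives. An uncharacterised gene on the opposite strand of *Pcyt1b* had 10 fragments in fresh and 88 in vitrified–warmed libraries. *Pcyt1a* gave 47.3% to 51.3% of the FPKM of the pair in fresh and 57.5% to 62.8% in vitrified–warmed libraries.

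Of the kinases that phosphorylate choline and ethanolamine before these steps, *Etnk1* fell from 93.2 ± 2.41 to 78.5 ± 4.78 CPM (log2 fold change -0.24, adjusted p = 0.00107 in edgeR). *Chka* and *Chkb* were not called, with log2 fold changes of -0.01 and 0.30, and *Chkb* shares 77.7% of its 50-base windows in GENCODE M21 with a readthrough transcript, so that its count is uncertain. *Etnk2* was too low to be tested, with 6, 1 and 1 fragments in fresh and 18, 9 and 7 in vitrified–warmed libraries, the latter all above the former. The last enzymes of the branch, *Cept1* and *Chpt1*, were not called either (log2 fold changes 0.03 and 0.06). Both overlap an expressed gene on the opposite strand, *Cept1* by 5 bases of *Dram2* and *Chpt1* by 424 bases of the meiotic gene *Sycp3*, which had 2078 fragments in fresh and 2105 in vitrified–warmed libraries.

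Phosphatidylserine is made by exchange of head groups, decarboxylated in mitochondria to phosphatidylethanolamine, and this can be methylated to phosphatidylcholine. The exchange enzymes were lower, *Ptdss1* from 91.1 ± 2.78 to 64.9 ± 8.39 CPM (log2 fold change -0.49, adjusted p = 4.92e-05 in edgeR) and *Ptdss2* from 41.9 ± 2.39 to 33.4 ± 3.15 CPM (log2 fold change -0.32, adjusted p = 0.00266 in edgeR). *Ptdss1* overlaps *Mterf3* on the opposite strand by 243 bases, and *Mterf3* had 615 fragments in fresh and 670 in vitrified–warmed libraries. *Pemt* fell from 152 ± 3.44 to 123 ± 1.44 CPM (log2 fold change -0.31, adjusted p = 1.25e-05 in edgeR), a change of 1.24-fold in the most abundant gene of the set.

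*Pisd*, the phosphatidylserine decarboxylase, was listed at 11.0, 9.30 and 11.6 CPM in fresh and at 18.3, 20.8 and 23.0 CPM in vitrified–warmed libraries. It was 1.95-fold higher without overlap (log2 fold change 0.96 ± 0.12 SE, adjusted p = 7.32e-06 in edgeR). The table also lists *Pisd-ps1* and *Pisd-ps2*, which share 5.20% and 8.72% of the 50-base windows of the *Pisd* transcript in GENCODE M21, and reads of such windows can be split between them. The annotation models Gm20671 and Gm43695, not analysed here, share 35.3% and 4.22% of the windows, so that the count of *Pisd* is uncertain. *Pisd-ps1* stood at 21.1 ± 1.97 CPM in fresh and 22.9 ± 2.45 CPM in vitrified–warmed libraries and was not called (log2 fold change 0.11, adjusted p = 0.364 in edgeR). *Pisd-ps2* fell from 24.2 ± 1.53 to 13.5 ± 1.73 CPM (log2 fold change -0.85, adjusted p = 7.31e-06 in edgeR). Summed over all 3 entries, a count added after the data were seen, the level was 55.96 ± 0.657 CPM in fresh and 57.1 ± 4.18 CPM in vitrified–warmed libraries (log2 fold change 0.03 ± 0.06 SE, adjusted p = 0.748 in edgeR). The rise of *Pisd* was therefore not present in the sum. Most of the sum came from the copies, of which *Pisd-ps2* fell, and whether reads were split between the entries was not tested. With the sum in place of *Pisd*, 9 genes of the set were higher, and 2 were higher under the thresholds used by the study.

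**Figure D3:**
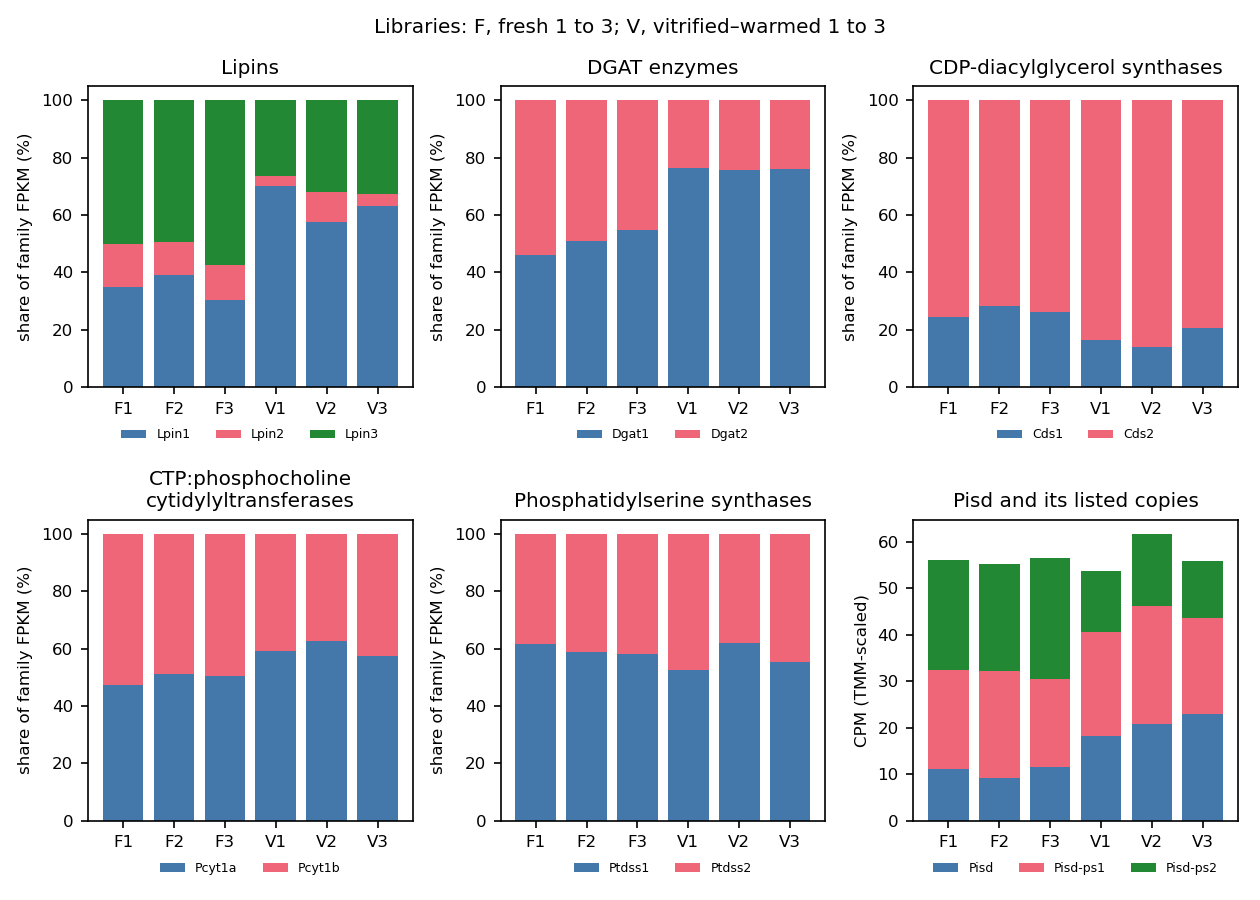
Share of each gene in the summed FPKM of its family (y axis, percent) in fresh libraries F1 to F3 and vitrified–warmed libraries V1 to V3, for lipins, DGAT enzymes, CDP-diacylglycerol synthases, phosphocholine cytidylyl transferases and phosphatidylserine synthases, and CPM of *Pisd* with its listed copies (last panel). *Lpin1* and *Dgat1* take larger shares in every vitrified–warmed library, and the sum over *Pisd* and its copies stays between 53.7 and 61.7 CPM.

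In the CDP-diacylglycerol branch the entry enzyme *Cds1* fell, and the mitochondrial phosphatase *Ptpmt1* rose. *Cds1*, one of the CDP-diacylglycerol synthases, stood at 10.9, 13.5 and 11.7 CPM in fresh and at 5.69, 5.00 and 8.09 CPM in vitrified–warmed libraries. Vitrified–warmed replicate 3 was the closest to the fresh libraries but did not reach them, and *Cds1* was 1.90-fold lower (log2 fold change -0.93 ± 0.17 SE, adjusted p = 0.000208 in edgeR). Its paralogue *Cds2* was the more abundant, with 71.8% to 75.6% of their summed FPKM in fresh and 79.2% to 85.9% in vitrified–warmed libraries. *Cds2* was lower by a small amount (log2 fold change -0.16, adjusted p = 0.0121 in edgeR), a call lost without fresh replicate 2 (-0.15) and without vitrified–warmed replicate 1 (-0.12).

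*Ptpmt1* dephosphorylates phosphatidylglycerol phosphate on the way to cardiolipin, and went from 14.6 ± 0.566 to 20.7 ± 1.51 CPM (log2 fold change 0.50, adjusted p = 0.000521 in edgeR). *Pgs1*, which acts before it, and *Crls1*, the cardiolipin synthase, were not called (log2 fold changes -0.09 and 0.21). The value of *Crls1* lay near the threshold, as it was called higher in 6 of the 15 alternatives, among them the fit without vitrified–warmed replicate 2 (log2 fold change 0.33, adjusted p = 0.000539 in edgeR). *Crls1* varied more among vitrified–warmed libraries, from 43.1 to 61.2 CPM, than among fresh libraries, from 43.7 to 47.4 CPM. *Cdipt*, at 138 ± 3.44 CPM in fresh and 139 ± 5.84 CPM in vitrified–warmed libraries, differed by less than its spread (log2 fold change 0.01). *Pgs1* and *Crls1* overlap the opposite-strand genes *Dnah17* and *Lrrn4*, and the counts do not state whether strand was used.

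Of the 7 genes of lysophospholipid reacylation 4 were higher and 2 lower, or 57.1% and 28.6% beside 31.6% and 32.8% of all genes (median log2 fold change 0.29). *Lpcat4*, a lysophospholipid acyltransferase, stood at 11.7, 9.39 and 11.1 CPM in fresh and at 19.0, 21.7 and 17.5 CPM in vitrified–warmed libraries. It was 1.81-fold higher without overlap (log2 fold change 0.85 ± 0.12 SE, adjusted p = 2.21e-05 in edgeR). *Mboat7*, which places arachidonate on lysophosphatidylinositol, rose from 19.0 ± 0.951 to 27.1 ± 1.08 CPM (log2 fold change 0.51, adjusted p = 0.000124 in edgeR). *Mboat2* rose from 59.1 ± 2.09 to 76.4 ± 1.55 CPM (log2 fold change 0.37, adjusted p = 3.00e-05 in edgeR). *Lclat1*, which acts on lysocardiolipin and lysophosphatidylinositol, rose from 38.7 ± 1.25 to 47.3 ± 0.942 CPM (log2 fold change 0.29, adjusted p = 0.00122 in edgeR), a call lost in limma on log2(FPKM + 0.5), where its log2 fold change was 0.11.

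The reacylation genes that fell were *Mboat1*, from 18.9 ± 1.68 to 13.2 ± 1.37 CPM (log2 fold change -0.51, adjusted p = 0.0011 in edgeR), and *Lpcat1*, from 81.3 ± 6.03 to 63.5 ± 1.87 CPM (log2 fold change -0.36, adjusted p = 0.000107 in edgeR). *Lpcat1* is known for making the saturated phosphatidylcholine of lung surfactant. *Lpcat3*, which places polyunsaturated fatty acids on phosphatidylcholine, was the most abundant of the branch at 28.9 ± 0.728 FPKM in fresh and 24.5 ± 0.835 FPKM in vitrified–warmed libraries, and was not called (log2 fold change -0.07). It overlaps 347 bases of *Emg1*, a ribosome biogenesis gene with 2272 fragments in fresh and 2065 in vitrified–warmed libraries.

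At the lipid droplet, *Abhd5* fell and the coat proteins changed little. *Abhd5* (also known as CGI-58) encodes the protein that activates the triacylglycerol lipase of *Pnpla2*. It stood at 21.7, 22.5 and 21.5 CPM in fresh and at 14.4, 11.3 and 11.4 CPM in vitrified–warmed libraries. All vitrified–warmed libraries were below every fresh library, with *Abhd5* 1.77-fold lower (log2 fold change -0.82 ± 0.11 SE, adjusted p = 1.29e-05 in edgeR). *Pnpla2* itself was not called, at 25.0 ± 1.55 and 27.5 ± 1.74 CPM (log2 fold change 0.14). *Plin2* went from 133 ± 1.31 to 151 ± 11.8 CPM (log2 fold change 0.18, adjusted p = 0.00873 in edgeR), but was not called in limma on log2(FPKM + 0.5), where its log2 fold change was 0.00. *Plin3*, another coat protein, was not called (log2 fold change 0.10).

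Beside the set, 70 other genes of glycerolipid metabolism were found in the table, and 57 of them were tested, with 28 lower (49.1%, beside 32.8% of all genes) and 9 higher (15.8%, beside 31.6%). Of these called genes 2 lower (*Nr1h3* and *Lipe*) and 2 higher ones (*Ppara* and *Acsl5*) passed the filter on low counts through 1 group alone. In each case it was the group where the gene was high, and the counts by list below include them. Among the 10 genes that handle phosphatidate and diacylglycerol 5 were lower (50%) and 3 higher (30%). *Dgke*, a kinase that returns diacylglycerol to phosphatidate, fell from 25.2 ± 1.62 to 10.1 ± 0.839 CPM (log2 fold change -1.33, adjusted p = 8.83e-08 in edgeR), while *Dgkq* of the same family rose from 4.74 ± 0.791 to 8.28 ± 0.385 CPM (0.80). *Ctdnep1*, which encodes a phosphatase that activates lipins, fell from 33.3 ± 3.76 to 21.4 ± 1.94 CPM (log2 fold change -0.64, adjusted p = 4.91e-05 in edgeR).

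Of 6 other acyltransferases 2 were lower (33.3%, beside 32.8% of all genes) and none was higher (31.6% of all genes). They were *Mogat2*, which makes diacylglycerol from monoacylglycerol, with 5.69 ± 0.572 CPM in fresh and 2.74 ± 1.36 CPM in vitrified–warmed libraries (log2 fold change -1.07, adjusted p = 0.00375 in edgeR), and *Agpat6*, a microsomal glycerol-3-phosphate acyltransferase also known as GPAT4 (log2 fold change -0.39). Of 6 other head group genes 3 were lower (50%) and 1 was higher (16.7%). *Ept1*, the ethanolamine phosphotransferase that acts after *Pcyt2*, was lower with overlapping groups (log2 fold change -0.20, adjusted p = 0.0135 in edgeR). *Tamm41*, a mitochondrial CDP-diacylglycerol synthase, had a log2 fold change of 0.32 and *Slmo2*, a mitochondrial phospholipid carrier, one of -0.29. Leaving out 1 library ended the calls of *Ept1*, *Tamm41* and *Slmo2* in at least 1 case each. The call of *Tamm41* was also lost in DESeq2 (adjusted p = 0.0599), in limma on log2(FPKM + 0.5) and log2(FPKM + 0.1), and with an exon length offset.

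Among the 16 genes that supply acyl-CoA and glycerol-3-phosphate, 9 were lower (56.25%, beside 32.8% of all genes) and 2 higher (12.5%, beside 31.6%). *Acsl1*, which activates fatty acids for synthesis, fell from 9.39 ± 1.02 to 4.96 ± 1.23 CPM (log2 fold change -0.93, adjusted p = 0.000461 in edgeR). The elongases *Elovl1*, for saturated very long chains, and *Elovl5*, for polyunsaturated chains, fell too (log2 fold changes -0.74 and -0.50). Of 8 other droplet and lipase genes 4 were lower (50%) and 2 higher (25%). *Hilpda*, an inhibitor of the *Pnpla2* lipase, went from 8.74 ± 0.800 to 1.37 ± 0.410 CPM (log2 fold change -2.68, adjusted p = 1.50e-07 in edgeR), *Cidea*, a droplet protein that promotes droplet growth, had a log2 fold change of -0.76 that lost its call without vitrified–warmed replicate 1 (-0.57), and *Abhd6*, a monoacylglycerol lipase, rose from 6.32 ± 0.688 to 13.2 ± 0.721 CPM (1.06). Of 11 transcription factors of lipid synthesis 5 were lower (45.5%) and 1 was higher (9.09%). The higher one was *Ppara*, and *Nr1h3* was among the lower, each passing the filter through 1 group alone. *Nr1h2*, a liver X receptor, had a log2 fold change of -0.53 (adjusted p = 4.48e-05 in edgeR), *Srebf2*, the main regulator of sterol synthesis genes, -0.46 (adjusted p = 0.000202 in edgeR) and *Srebf1*, its relative for fatty acid synthesis genes, -0.31 (adjusted p = 0.0119 in edgeR), the last lost without vitrified–warmed replicate 3 (-0.23).

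The 15 alternative settings are shown gene by gene in the map of log2 fold changes. All 12 genes described library by library kept their direction and their call in each of these settings in which they were tested (the sum over *Pisd* and its copies is not one of them), and 22 of the 27 called genes did so. The other 5 were *Agpat1*, *Pcyt1a*, *Cds2*, *Lclat1* and *Plin2*, each with a change under 1.5-fold. *Lpin2* is counted among the 12 and the 22, but it passed the filter on low counts through the fresh group alone, where it was high. Its calls are therefore no support, and its log2 fold change ran from -3.37 to -0.67 over the settings. A total of 15 genes were called below 1.5-fold, 7 higher and 8 lower, with absolute log2 fold changes from 0.16 to 0.51, and the 13 genes without a call lay between -0.14 and 0.30. Across the 40 genes, the log2 fold change had a Spearman rho of -0.20 with exon length and of 0.22 with mean FPKM, as a description of genes that share the same libraries.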

How the data were processed

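Total RNA of 6 aliquots was made into libraries with the Ovation SoLo kit. Per the paper's methods, the authors trimmed reads, aligned them to GRCm38 and counted fragments per gene in CLC Genomics Workbench. The deposited exon fragment counts are whole numbers without normalization, and the authors computed the deposited FPKM from them, the exon length and a larger library total. The annotation release and the use of strand are not given in the sources used here. The authors' own comparison columns (p-value, fold changes, group means) were not used. Of 28887 rows, 8 named no gene. Counts passing filterByExpr were tested with edgeR 4.0.16 (TMM, robust quasi-likelihood) in R 4.3.3 over 12774 genes. CPM are scaled with TMM factors, and FPKM serve for levels between genes. An exact permutation test of 3 against 3 libraries cannot go below 0.1 and was not used. Full values are given for genes past adjusted p 0.05, without overlap and at least 1.5-fold. Up to 3 other genes per list are named, those with the larger changes above 0.5 FPKM. *Agpat9* and *Gpat2* are named outside this rule, beside *Gpam*. The genes and lists were chosen with earlier results of these data known. Alternatives were DESeq2 1.42.0, upper-quartile and housekeeping scaling, no filter, only genes above 1 FPKM, limma 3.58.1 on log2(FPKM + 0.5) and log2(FPKM + 0.1), a replicate block, an exon length offset, each library left out, and an adjusted p or 2-fold in the thresholds of the study. The edgeR test was checked on simulated counts in which few genes changed, so that the check does not cover data in which most genes are called. Python 3.11.15 with numpy 2.4.6, pandas 2.3.3, scipy 1.17.1 and matplotlib 3.10.9 was used, with GENCODE M21 transcripts for shared sequence.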

Additional observations from a re-analysis of the deposited data

How the results depend on the processing

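Depth and design limit these values: 1 pool per group, few fragments for *Lpin2*, *Lpin3* and *Etnk2*, and unstated strand. With only genes above 1 FPKM, fewer genes were tested, 2789 of all genes were lower, and 5 of the set were lower under the thresholds of the study. In limma with a pseudocount of 0.5, 2647 of all genes were higher and 5542 lower, against 4034 and 4188 in edgeR, and with either pseudocount 6 of the set were higher and 22 lower, against 10 and 17. The median of all genes moved to -0.13 and -0.16 there. With 2-fold in the thresholds of the study, 0 of the set were higher and 3 lower in edgeR, against 3 and 8 at 1.5-fold (10 and 17 at an adjusted p under 0.05). Leaving out 1 library gave 9 to 12 higher and 16 to 17 lower. Same-numbered libraries did not deviate together (correlations -0.01, -0.03 and 0.03, with 2 of 6 best with their own number), so they share only a number. With a replicate block, 9 of the set were higher and 17 lower, and *Pcyt1a* (0.19, adjusted p = 0.0528 in edgeR) was the only gene of the set to lose its call. *Pisd* summed with its copies had a log2 fold change of 0.03.

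Signs reversed for 8 genes without a call. *Agpat4* was 0.029 with the exon length offset and -0.16 to 0.040 with 1 library left out, and *Lpcat3* was 0.017 with the offset. *Chka* was 0.021 with upper-quartile scaling, 0.017 with housekeeping scaling, 0.023 above 1 FPKM and -0.030 to 0.023 with 1 library left out. In limma with pseudocounts of 0.5 and 0.1, *Cept1* was -0.13 and -0.14 (-0.023 to 0.074 with 1 library left out), *Chpt1* -0.11 and -0.12, *Cdipt* -0.15 and -0.16, both called (-0.012 to 0.062 with 1 library left out), *Plin3* -0.065 and -0.066, and *Pnpla2* -0.032 and -0.034. Calls were gained by *Agpat5*, *Chka*, *Pgs1* and *Lpcat3* in limma with either pseudocount (lower), by *Chpt1*, *Plin3* and *Pnpla2* with the exon length offset, by *Plin3* without vitrified–warmed replicate 3, and by *Crls1* in 6 alternatives (all higher). The cause was not tested.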

Other observations

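Some genes of lipid metabolism outside the rule for named genes differed by more, most of them at low levels; they were chosen after their values were seen. *Nr1h3*, the other liver X receptor, had 65 fragments in fresh libraries and 0 in vitrified–warmed libraries, at least 20.0-fold lower against a floor of 3 counts over the group. *Lpcat2*, a lysophosphatidylcholine acyltransferase, had 40 fragments and 0, at least 12.3-fold lower on the same floor. *Ppara*, a receptor that drives fatty acid oxidation, had 6 fragments in fresh and 107 in vitrified–warmed libraries. *Acsl5*, an acyl-CoA synthetase, went from 0.502 ± 0.0373 to 2.81 ± 0.703 CPM. Among lipases, *Lipe* went from 2.27 ± 0.423 to 0.442 ± 0.106 CPM and *Mgll* from 1.72 ± 0.247 to 4.79 ± 1.21 CPM (1.47, adjusted p = 0.00031 in edgeR). *Gpd1l*, which makes glycerol-3-phosphate, was the most abundant of the 70 other genes and fell from 703 ± 5.22 to 551 ± 6.72 CPM (log2 fold change -0.35, adjusted p = 2.50e-07 in edgeR). *Fasn*, the fatty acid synthase, was at 52.0 ± 3.71 and 54.7 ± 3.43 CPM and was not called (log2 fold change 0.07). Of these genes, *Nr1h3*, *Ppara*, *Acsl5* and *Lipe* were counted often enough to be tested in 1 group alone, the one where each was high. No p-value of them is given, though the counts of called genes include them.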
